A study of Mus musculus with 8 samples.

Results

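Heart tissue of mice kept as formalin-fixed, paraffin-embedded (FFPE) blocks was compared with flash-frozen mouse heart, gene by gene, to see which chambers, vessels and other tissues the differing genes mark. The compared genes were those with a log2 value above 0, that is above 1 CPM (reads per 1e+06 reads of the scaled library), in at least 1 of the 2 heart libraries: 13138 of the 27179 genes in the table. Of these, 12005 were above that level in both hearts, 774 in FFPE heart alone and 359 in frozen heart alone. Just inside the limit were Gm10554 (10 reads in each heart) and Gm13552 (6 FFPE reads, 10 frozen), and just outside were Gm14964 (12 and 3 reads) and D130050E23Rik (12 and 0 reads).

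The study sequenced total RNA of mouse brain, heart, kidney and liver, with 1 frozen and 1 FFPE library from each of the 4 organs. Organs were either snap frozen or fixed in 10% formalin and embedded in wax, and RNA was taken with Trizol and sheared in a PIXUL sonicator, after removal of the wax for FFPE tissue. The labels give no strain, genotype, sex, age or number of animals, and do not say which piece of the heart was used or whether tissue was pooled. Preservation, piece of tissue and animal therefore cannot be told apart with 1 heart library a side, and no difference between the hearts has a replicate check.

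Heart muscle is built differently in the atria and the ventricles. Atrial muscle cells carry their own myosin light chains, store natriuretic peptide in granules and secrete it into the blood, and use the small protein sarcolipin to restrain the calcium pump. Ventricular muscle cells carry the ventricular light chains and use phospholamban for the same purpose. Alpha myosin heavy chain, titin and cardiac actin are shared by all chambers of the adult mouse heart.

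The upstream sequences of 4 genes with atrial patterns are shown first because these genes gave some of the largest differences between the hearts, and that of the ventricular light chain Myl2 is shown for contrast. Each run is the 250 bases before the start of the gene, 5′ to 3′ on the strand of the gene, from RefSeq on build GRCm38.p6: Myl7 at chr11:5898783-5899032 (minus strand), Bmp10 at chr6:87428744-87428993, Nppa at chr4:148000472-148000721, Mybphl at chr3:108364661-108364910 and Myl2 at chr5:122092474-122092723 (plus strand). Capitals mark matches, on either strand, to words bound by 3 families of cardiac transcription factors.
Myl7: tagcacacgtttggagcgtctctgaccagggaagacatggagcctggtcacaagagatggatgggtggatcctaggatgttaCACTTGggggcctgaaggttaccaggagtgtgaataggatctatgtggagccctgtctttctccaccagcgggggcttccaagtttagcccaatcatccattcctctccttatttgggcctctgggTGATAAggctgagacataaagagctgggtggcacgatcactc
Bmp10: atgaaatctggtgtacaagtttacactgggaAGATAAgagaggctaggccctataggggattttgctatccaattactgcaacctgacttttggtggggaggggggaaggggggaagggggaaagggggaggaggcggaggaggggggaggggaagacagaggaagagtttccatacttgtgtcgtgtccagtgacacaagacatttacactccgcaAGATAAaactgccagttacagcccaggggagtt
Nppa: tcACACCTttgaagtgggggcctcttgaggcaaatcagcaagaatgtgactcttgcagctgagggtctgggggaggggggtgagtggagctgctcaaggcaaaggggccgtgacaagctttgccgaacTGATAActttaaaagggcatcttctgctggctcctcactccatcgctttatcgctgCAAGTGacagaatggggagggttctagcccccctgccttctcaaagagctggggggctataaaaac
Mybphl: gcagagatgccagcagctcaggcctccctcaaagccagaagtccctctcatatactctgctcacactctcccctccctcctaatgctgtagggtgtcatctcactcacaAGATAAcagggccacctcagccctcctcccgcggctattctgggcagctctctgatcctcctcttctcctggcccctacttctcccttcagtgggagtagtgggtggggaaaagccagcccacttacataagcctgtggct
Myl2: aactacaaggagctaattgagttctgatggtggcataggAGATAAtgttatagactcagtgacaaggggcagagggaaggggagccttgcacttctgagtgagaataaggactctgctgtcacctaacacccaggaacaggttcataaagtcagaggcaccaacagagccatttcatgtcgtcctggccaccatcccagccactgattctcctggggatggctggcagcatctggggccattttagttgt
For GATA factors the search took the word AGATAA, the word AGATAG, the word TGATAA or the word TGATAG. For T-box factors it took AGGTGT, and for NK2 homeobox factors CAAGTG, each with its reverse complement, and no match overlapped another in these windows. A GATA word lay in all 5 windows, with its first base 42 bases before the start in Myl7, 33 and 219 in Bmp10, 122 in Nppa, 141 in Mybphl and 211 in Myl2. A T-box word was found 248 bases before the start of Nppa, and NK2 words 66 bases before Nppa and 168 before Myl7. Over all 27025 mouse promoters of the same length, 27.1% held a GATA word, 12% a T-box word and 11.6% an NK2 word, and a match is only a description of the letters. The window of Myl4, which lay partly over an exon and held none of these words, is not shown, and Sln and Dkk3 are named only.

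The FFPE heart library held 15848065 reads assigned to genes and the frozen one 20526813, within 10180972 to 20526813 over all 8 libraries. Ribosomal RNA took 56.5% of FFPE and 71.3% of frozen reads, and at least 1 read was found for 18140 and 16098 genes. A gene without reads was given the limit of 3 reads, 0.227 CPM in FFPE and 0.292 CPM in frozen heart. For such a gene, the least fold given rests on that limit and leaves out the counting error of the other library. Muscle markers fit the label in both libraries: Myh6, the alpha heavy chain, had 186885 FFPE and 146976 frozen reads, while the hepatocyte gene Alb had 15 and 14.

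Most genes had like levels in both preparations. The log2 difference (FFPE minus frozen) had a median of 0.05 and an SD of 0.801, with 5th and 95th percentiles of −0.986 and 1.31. At least 2-fold higher in FFPE were 1107 genes (8.43%) and at least 2-fold lower 637 (4.85%), which leaves 11394 (86.7%) within 2-fold. The 95% counting interval, which covers the error of counting reads and nothing else, excluded no change for 994 of the higher and 563 of the lower genes. Differences ran with transcript length: the median went from −0.324 in members with transcripts of up to 2085 nucleotides to 0.267 in those of 4871 or more. Genes at least 2-fold lower made up 11.5% of the short and 0.679% of the long transcripts.

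**Figure D1:**
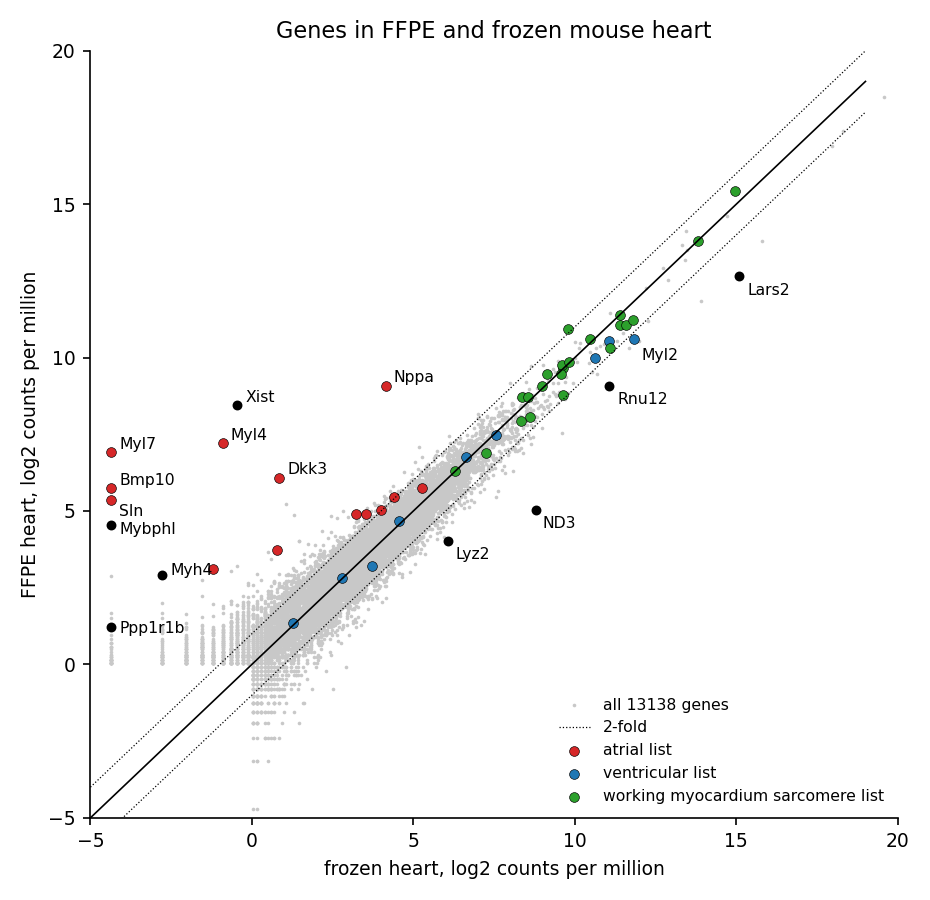
Level of each of the 13138 genes in frozen heart (horizontal) and FFPE heart (vertical), both in log2 CPM, with lines of equality (solid) and of 2-fold difference (dotted) and 3 gene lists in colour. Ventricular and sarcomere genes lie along the equality line, while Myl7, Sln, Bmp10 and Myl4 stand far above it at the left edge.

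Atrial genes had the largest median difference of the lists described here. Myl7, Sln, Bmp10, Myl4 and Fgf12 had at most 5 reads in frozen heart, while the other 8 members had 17 to 398. Of 14 listed atrial genes 13 were members, and 12 of these were at least 2-fold higher in FFPE (8.43% over all genes) and 0 lower, with a median log2 difference of 4.31 against 0.05 over all genes. Summed over the whole list, the level was 1187 CPM in FFPE and 118 CPM in frozen heart. Because 5 of the 13 passed the level filter only through the FFPE library, the count alone supports nothing. Over the members above the filter in both hearts the median was 1.53. In bulk tissue, fewer cells of a type and less RNA per cell cannot be told apart.

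The atrial contractile genes showed the widest gap. Myl7 (chr11:5896637-5898782), the atrial regulatory light chain, had 1590 reads (121 CPM) in FFPE and 0 in frozen heart, at least 412-fold higher in FFPE. Its partner Myl4, the atrial essential light chain (chr11:104546017-104587215), had 1959 reads (149 CPM) and 5 reads (0.487 CPM), a log2 difference of 8.11 with an interval of 7.03 to 9.88. Sln, which encodes sarcolipin (chr9:53850251-53853849), had 536 reads in FFPE and 0 in frozen heart, at least 139-fold higher. The frozen heart thus lay at or within a few reads of 0 for each of these 3 genes, and the hearts did not come close. Mybphl, a myosin-binding protein of atrial muscle that stood on the wall stress list, had 307 FFPE reads and 0 frozen reads, at least 79.6-fold higher.

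Secreted atrial proteins followed the same order. Nppa, the gene of atrial natriuretic peptide (chr4:148000722-148002074), had 7173 reads (544 CPM) in FFPE and 180 reads (17.5 CPM) in frozen heart, 30.9-fold higher with a log2 difference of 4.95 (4.74 to 5.18). Bmp10, a growth factor made by atrial muscle (chr6:87428994-87434512), had 706 and 0 reads, at least 183-fold higher. Dkk3, a secreted protein related to inhibitors of Wnt signals, had 897 and 18 reads, a log2 difference of 5.24 (4.61 to 6.04). Pam, the enzyme that amidates peptide hormones and an abundant protein of atrial granules, had 7534 and 2588 reads, a difference of 1.18 (1.11 to 1.24). Nppa was thus still measurable in frozen heart, while Bmp10 was not. In the 6 libraries of brain, kidney and liver, Myl7 had at most 4 reads, Nppa at most 3 and Sln at most 2. Bmp10 had 24 reads in FFPE liver. Dkk3 and Pam were not confined to heart: FFPE and frozen brain held 853 and 413 reads of Dkk3 and 1409 and 2580 of Pam.

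Atrial channel genes and regulators were higher by smaller factors. Fgf12, which binds sodium channels from inside the cell, had 114 FFPE and 4 frozen reads (log2 difference 4.31), and the calcium channel subunit Cacna2d2 had 173 and 17 (2.95). Stard10, a lipid transfer protein, had 392 and 96 reads (1.66), and Tbx5, a T-box transcription factor of heart development, had 396 and 117 (1.39). These 4 genes lie between the light chains and the potassium channels in size of difference. Kcnj3 and Kcnj5 encode the 2 subunits of the potassium channel opened by acetylcholine: Kcnj3 had 580 and 216 reads (1.06) and Kcnj5 had 705 and 398 (0.46), the only member of the list under 2-fold. Kcna5, a fast potassium channel of atrial muscle, had 431 and 163 reads (1.04).

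Ventricular genes did not mirror this. Of 10 listed genes 9 were members, with 0 at least 2-fold higher and 1 lower (8.43% and 4.85% over all genes). The median difference was −0.09. Myl2, the ventricular regulatory light chain, had 20646 FFPE reads (1566 CPM) and 37011 frozen reads (3607 CPM), a difference of −1.20 (−1.23 to −1.18). Myl3, the ventricular essential light chain, had 13352 and 16335 reads (−0.65), and Pln, the phospholamban gene, had 19501 and 21917 (−0.53). The transcription factor Irx4 had 121 and 136 reads (−0.53) and the transcription factor Hey2 had 33 and 24 (0.09). Myh7, the beta heavy chain, differed by 0.13, Kcnip2, a potassium channel partner, by 0.13, Lbh by −0.09 and Mpped2 by 0.01, while Hand1 had 0 reads in both hearts. Myl2 was thus the only ventricular gene past 2-fold, in the direction opposite to the atrial genes. Myl2 and Myl3, like Myl7, Myl4 and Nppa, have transcripts of under 1000 nucleotides. With the median difference of genes of like length removed, the median of the atrial list was 4.17 and that of the ventricular list −0.12.

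**Figure D2:**
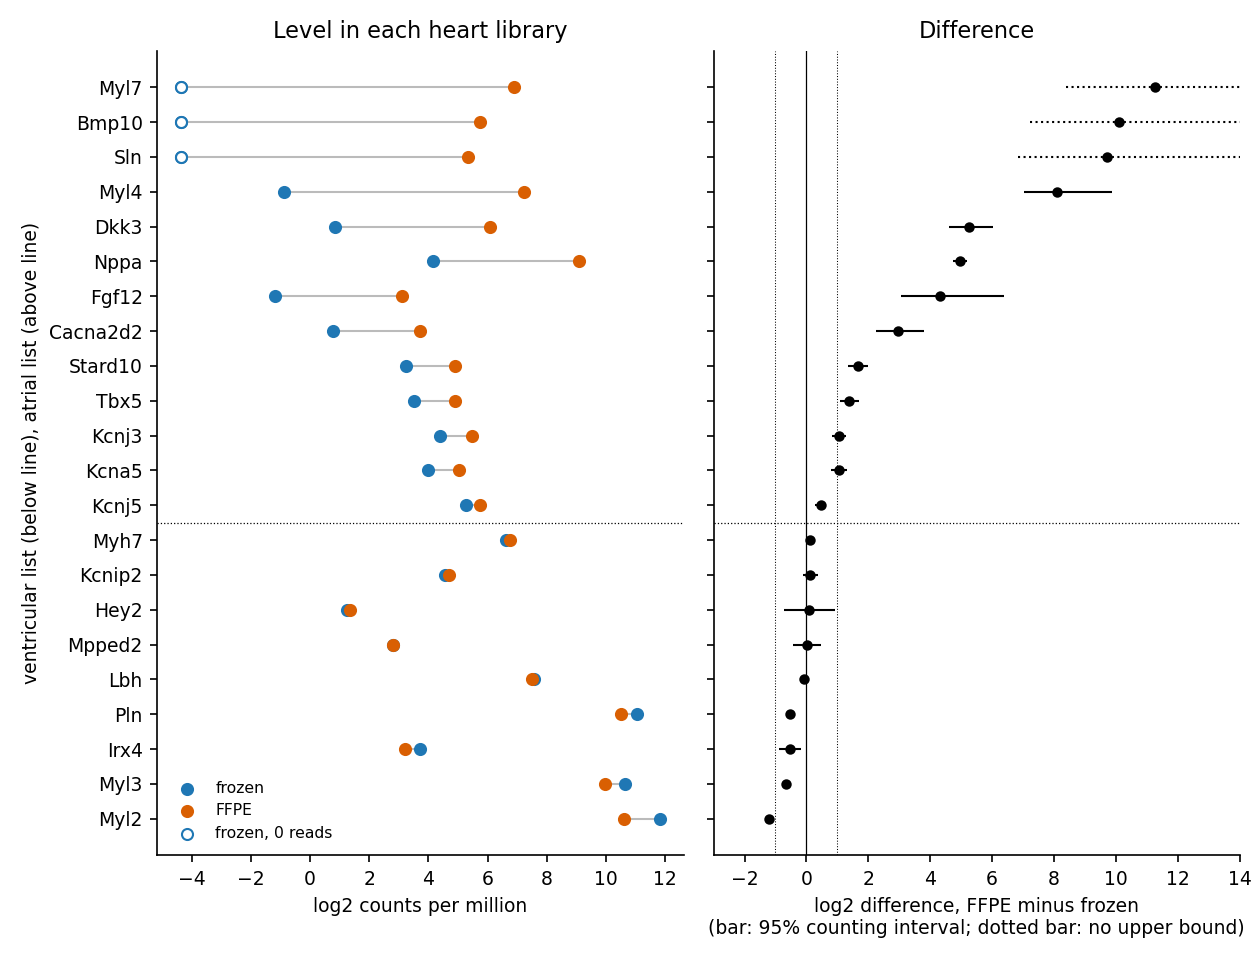
Level of each atrial and ventricular list member in the 2 heart libraries in log2 CPM (left; open circles mark 0 reads) and the log2 difference, FFPE minus frozen, with its 95% counting interval (right; dotted bars have no upper bound). All 13 atrial genes lie right of 0, and all 9 ventricular genes lie between −1.20 and 0.13.

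Ratios within a library do not depend on how libraries are scaled. They use the same reads as the differences above and add no independent support. Per transcript length, Myl7 stood at 11.6% of Myl2 in FFPE heart (95% exact interval 11 to 12.2) and at 0% in frozen heart, where a count of 0 allows up to 0.0122%, so the ratio was at least 950-fold higher in FFPE. Myl4 stood at 14.6% of Myl3 in FFPE (13.9 to 15.3) and at 0.0304% in frozen heart (0.00987 to 0.071), a 479-fold gap. For sarcolipin against phospholamban the ratio was 4.87% in FFPE and 0% in frozen heart (up to 0.0242%), at least 201-fold higher. Nppa reached 1333% of Nppb, the gene of B-type natriuretic peptide, in FFPE and 29.1% in frozen heart, a 45.8-fold gap. Summed in reads, the atrial list was 27% of the ventricular list in FFPE and 1.54% in frozen heart, 17.5-fold apart.

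Genes shared by all heart muscle held their level. The sarcomere list had 22 members with 1 higher (8.43% over all genes), 0 lower (4.85%) and a median of 0.00. Myh6 differed by −0.02, cardiac actin (Actc1) by −0.00 and titin (Ttn) by 0.48, while the troponins Tnni3 and Tnnc1 differed by −0.79 and −0.86. Calcium handling genes had 0 of 11 past 2-fold in either direction and a median of −0.11: the release channel Ryr2 differed by 0.35 and the calcium pump Atp2a2 by −0.36. Ion channels and connexins of working muscle had 0 of 18 past 2-fold and a median of 0.24, among them the potassium channel Kcnh2 (0.81) and Gja1, connexin 43 (−0.58).

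On the list of pacemaker and conduction genes, 14 of 18 were members. Of these, 4 were at least 2-fold higher (8.43% over all genes) and 0 lower, with a median of 0.66. Cacna1d, a calcium channel of pacemaker and atrial cells, had 102 FFPE and 11 frozen reads, a difference of 2.79 (1.95 to 3.90). The T-type calcium channel Cacna1g had 293 and 108 reads (1.07, 0.75 to 1.41). Cpne5, which passed the level filter only through FFPE, had 24 and 3 reads (2.45, 0.92 to 5.01). The main pacemaker channel Hcn4, with 100 and 47 reads, differed by 0.72 and the pacemaker transcription factor Tbx3, with 224 and 129, by 0.43. Shox2, with 8 and 4 reads, and Isl1, with 5 and 0, were too low to be members, and the matrix gene Smoc2 differed by −0.94. Calcium channel genes were thus among those past 2-fold, and the summed level of the list was 172 CPM in FFPE and 154 CPM in frozen heart.

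On the wall stress list 4 of 11 members were at least 2-fold higher (8.43% over all genes) and 0 lower. Of the 4, Mybphl passed the level filter only through FFPE. Nppa and Mybphl were joined by skeletal actin, Acta1 (1282 and 336 reads, 1.57), and the matrix protein gene Ccn2 (854 and 310 reads, 1.10). The other 7 of its 11 members lay within 2-fold, among them Nppb, with 486 and 559 reads (−0.56), and Ankrd1, a stretch-responsive titin partner, with 3472 and 1748 (0.63).

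Of the vessel lists, smooth muscle stood highest. Vascular smooth muscle had 10 members with 4 at least 2-fold higher (8.43% over all genes), 0 lower and a median of 0.77, and its summed level was 419 CPM in FFPE and 241 CPM in frozen heart. Myh11, the smooth muscle heavy chain, had 1084 and 420 reads (1.00), smooth muscle actin Acta2 had 792 and 300 (1.04), the integrin Itga8 had 167 and 57 (1.18) and calponin, Cnn1, which passed the level filter only through FFPE, had 38 and 6 (2.20). Of the other 6, Tagln, Smtn, Lmod1, Mylk and Myocd lay between 0.52 and 0.79 and the receptor partner Ramp1 at −0.01. Arterial endothelium had a median of 0.38 over 12 members: Gja5, connexin 40 of arteries, atria and conduction fibres, had 162 and 55 reads (1.19), Bmx had 24 and 45 (−1.26) and the other 10 lay within 2-fold. For the wall of the great arteries the median was −0.04 over 11 members, with elastin (Eln) at 0.48 and Mfap4, which had 73 and 21 reads, at 1.41.

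Capillary, pericyte and stromal genes lay near or under no difference. The 20 capillary and general endothelial genes had a median of −0.11, with Cdh5 at −0.11, Pecam1 at 0.03 and the fatty acid carrier Fabp4, the only 1 past 2-fold, at −1.01. Pericyte genes had a median of −0.31 over 10 members (Rgs5 at −0.72, Notch3 at 0.84 and Vtn, past 2-fold, at −1.01). Endocardial genes had a median of −0.38 over 7 members, none of them past 2-fold. Fibroblast genes had a median of −0.44 over 17, with collagen Col1a1 at −0.26, decorin (Dcn) at −0.97 and Serpinf1 at −1.18. Venous and lymphatic endothelial genes had medians of 0.10 over 5 and 0.14 over 6 members with none past 2-fold, and mesothelial genes −0.36 over 8 members. Of these, 2 were at least 2-fold lower (4.85% over all genes), Krt19 (7 and 14 reads) and Bnc1 (6 and 13). Both passed only through the frozen library and had intervals that include no change (upper bounds 0.04 and 0.02). Under a plain share of all reads the median of all genes moved to 0.79, and the medians of the ventricular list (0.65) and the macrophage list (−0.02) moved with it, while that of smooth muscle (1.51) and of the atrial list (5.04) stayed above it.

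Valve genes had 11 members of 16, with 1 higher (8.43% over all genes), 1 lower (4.85%) and a median of 0.41. Cilp2, a matrix protein of cartilage-like tissue, had 96 FFPE reads and 0 frozen reads, at least 24.9-fold higher, whereas Omd, a small proteoglycan, had 3 and 11. Cilp2 passed the level filter only through FFPE and Omd only through the frozen library. The lubricating protein gene Prg4 had 88 and 36 reads (0.92), Comp had 85 and 37 (0.83) and periostin (Postn) had 305 and 215 (0.14). Apart from Cilp2, the valve genes were thus higher in FFPE by less than 2-fold or not at all. On the cartilage list the collagen Col2a1 had 7 and 0 reads and aggrecan (Acan) 5 and 0, which left neither a member.

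**Figure D3:**
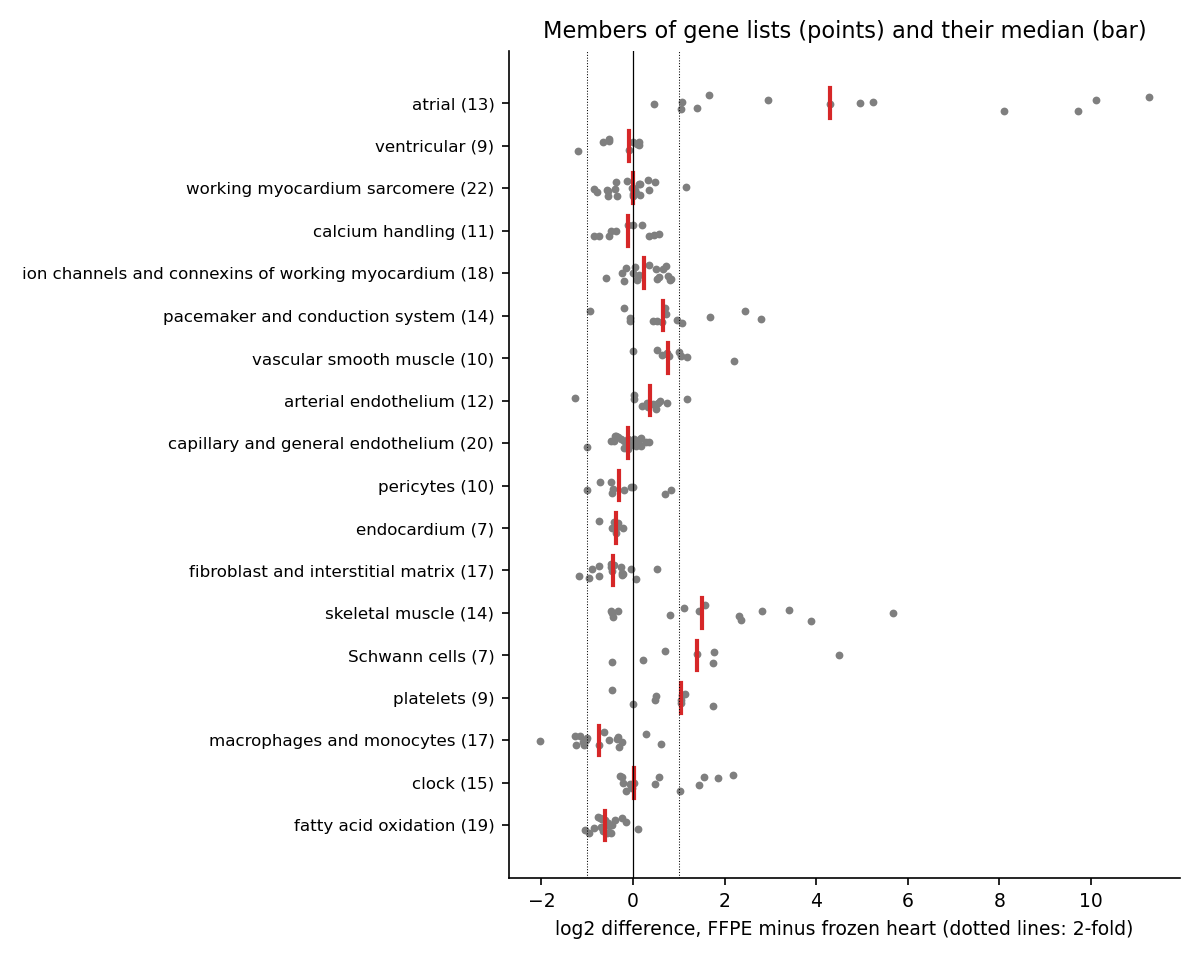
Log2 difference, FFPE minus frozen heart, of each member (points) of 18 gene lists, with the number of members in brackets and the median as a red bar. The atrial median lies at 4.31, while the ventricular, sarcomere and capillary medians lie between −0.11 and 0.00.

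Fast skeletal muscle genes had few reads in both hearts. Of 22 listed genes 14 were members, 9 of them at least 2-fold higher (8.43% over all genes) and 0 lower, but 6 members passed the level filter only through the FFPE library. Myh4, a fast heavy chain, had 98 FFPE and 1 frozen read (5.67, 3.74 to 11.57), Myh1 had 41 and 6 (2.31), the calcium pump Atp2a1 had 28 and 1 (3.89) and the release channel Ryr1 had 31 and 3 (2.81). The fast troponin Tnnt3 had 20 and 1 reads (3.41). These genes were among the 6 that passed only through FFPE. Tnni2, which passed only through the frozen library, had 10 and 11 reads (−0.49, −1.89 to 0.88). Above the filter in both hearts, Acta1 (1.57), Mybpc2 (170 and 48 reads, 1.45) and Myl1 (190 and 68, 1.11) were at least 2-fold higher. Casq1 (0.81), Cacna1s (−0.32) and Tnnt1 (−0.44) lay within 2-fold. The abundant creatine kinase Ckm, shared with heart muscle, had 5684 and 6089 reads (−0.46), and over the whole list the summed level was 592 CPM in FFPE and 657 CPM in frozen heart. Fast muscle genes were also higher in FFPE than frozen kidney (Myh1 24 and 0 reads, Myh4 25 and 2).

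Nerve genes were few in reads in both hearts. Schwann cell genes had 7 members of 12, with 4 higher (8.43% over all genes). Among the 4 were the myelin genes Mbp, with 138 and 31 reads (1.77), and Prx, with 25 and 7 (1.40). However, 3 of the 7, Prx among them, passed the level filter only through FFPE. Of 16 autonomic genes 7 were members and 4 were higher (8.43% over all genes). These included Dbh, the enzyme that makes noradrenaline, with 20 and 4 reads (1.83), and the neurofilament Nefm, with 29 and 1 (3.94). Dbh and Nefm were among 3 members that passed only through FFPE, so neither count supports a difference. Th, the first enzyme of that pathway, had 5 and 0 reads. On the list of brain neuron genes 8 of 9 members were higher (8.43% over all genes) and 4 of the 9 passed only through FFPE. The median difference was 2.12 in heart, beside 0.24, 1.95 and −0.48 in brain, kidney and liver. Members were taken by their level in heart, so the filter can raise the heart median but not the other medians. The count and this comparison of medians therefore support nothing alone. The whole-list level was 62.7 CPM in FFPE and 24.5 CPM in frozen heart. The vesicular glutamate transporter Slc17a7 had 215 and 28 reads (2.56) and the vesicle protein Syt1, which passed only through FFPE, had 31 and 1 (4.03). These FFPE heart reads ranged from 0.243% (Gad1) to 7.68% (Slc17a7) of the reads in FFPE brain. Whether carry-over from brain had a part in them was not tested.

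Neighbouring tissues of the chest left few reads. No lung and airway gene reached the level filter, and their sum was 3.19 CPM in FFPE and 0.292 CPM in frozen heart. For brown fat the uncoupling protein gene Ucp1 had 2 and 0 reads, and for white fat the hormone gene Adipoq had 2 and 0 and adipsin (Cfd) had 12 and 1. Plin4, a lipid droplet protein also made in heart, had 2284 and 700 reads (1.34). Thymus and thyroid lists had 1 member each, the squamous epithelium list had 0, and the kidney tubule and hepatocyte lists summed to 2.96 and 2.88 CPM in FFPE and to 1.66 and 3.22 CPM in frozen heart.

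Blood and immune genes differed by type. Macrophage genes had 17 of 17 members, with 8 at least 2-fold lower (4.85% over all genes), 0 higher and a median of −0.75. Their sum was 195 CPM in FFPE and 413 CPM in frozen heart. Of the 17, 2 passed the level filter only through the frozen library. Timd4 (10 and 17 reads, −1.10, interval −2.42 to 0.08) was 1 of these 2 and was counted among the 8. Lyz2, macrophage lysozyme, had 215 FFPE and 689 frozen reads (−2.04, −2.27 to −1.82), Cd74, the invariant chain of antigen presentation, had 436 and 808 (−1.25) and H2-Ab1, a class II molecule, had 155 and 292 (−1.27). The mannose receptor Mrc1 had 308 and 537 reads (−1.16), while Csf1r, the receptor that macrophages need to survive, had 345 and 416 (−0.63). The same list had medians of −0.56, −0.61 and −0.18 in brain, kidney and liver, and Lyz2 was lower in FFPE in all 4 organs. Platelet genes had 9 of 9 members with 5 higher (8.43% over all genes), 0 lower and a median of 1.04, led by the integrin Itga2b with 153 and 35 reads (1.75). Gp1ba and Treml1, with 14 and 5 reads each and an interval of −0.43 to 2.95, passed only through FFPE and gave 2 of the 5 as well as the median. Of 10 erythroid members 2 were higher (8.43% over all genes) and 0 lower: the anion exchanger Slc4a1 (1.02) and the iron carrier Slc25a37 (1.07). Beta globin Hbb-bs differed by −0.63, and the near-identical alpha globins Hba-a1 and Hba-a2 by 0.48 and 0.46, with reads that counting may split between them. No T or NK cell gene and 2 of 13 neutrophil genes were members. Of 5 B and plasma cell members, Ighm had 41 and 35 reads (−0.14). Igkc, with 20 and 7 reads, and Cd37, with 16 and 5, passed only through FFPE and had intervals that include no change (−0.15 to 2.64 and −0.20 to 3.12).

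Xist, the RNA that silences 1 X chromosome in female cells, had 4652 reads (353 CPM) in FFPE heart and 7 reads (0.682 CPM) in frozen heart, a log2 difference of 8.91 (7.97 to 10.33). The Y-linked helicase gene Ddx3y had 233 and 634 reads (−1.80), Eif2s3y had 163 and 323 (−1.35), Uty had 165 and 248 (−0.95) and Kdm5d had 128 and 130 (−0.38). The frozen heart library thus held Y-linked reads with almost no Xist, while the FFPE heart library held both. In the other organs the FFPE libraries also held both (Xist 9954 to 24213 reads, Ddx3y 224 to 450). Frozen kidney and liver had 1 and 3 Xist reads, and frozen brain had 13170 Xist reads with 0 of Ddx3y. The part of this sex-linked difference between the hearts in the other differences was not tested.

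Clock genes keep the time of day through a loop in which activators switch on their own repressors. Of 15 clock members 5 were at least 2-fold higher in FFPE (8.43% over all genes) and 0 lower, with a median of 0.02. The period genes Per1 (737 and 211 reads, 1.44), Per2 (270 and 46, 2.18) and Per3 (263 and 56, 1.86) and their output partners Dbp (47 and 12, 1.56) and Tef (594 and 227, 1.02) were higher. Arntl, the activator of the loop, differed by −0.28, Clock by −0.06, Nr1d1 by −0.03 and Cry1 by −0.04. Per2 was also higher in FFPE brain, kidney and liver, by 1.04, 0.97 and 1.20. The labels give no time of collection.

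**Figure D4:**
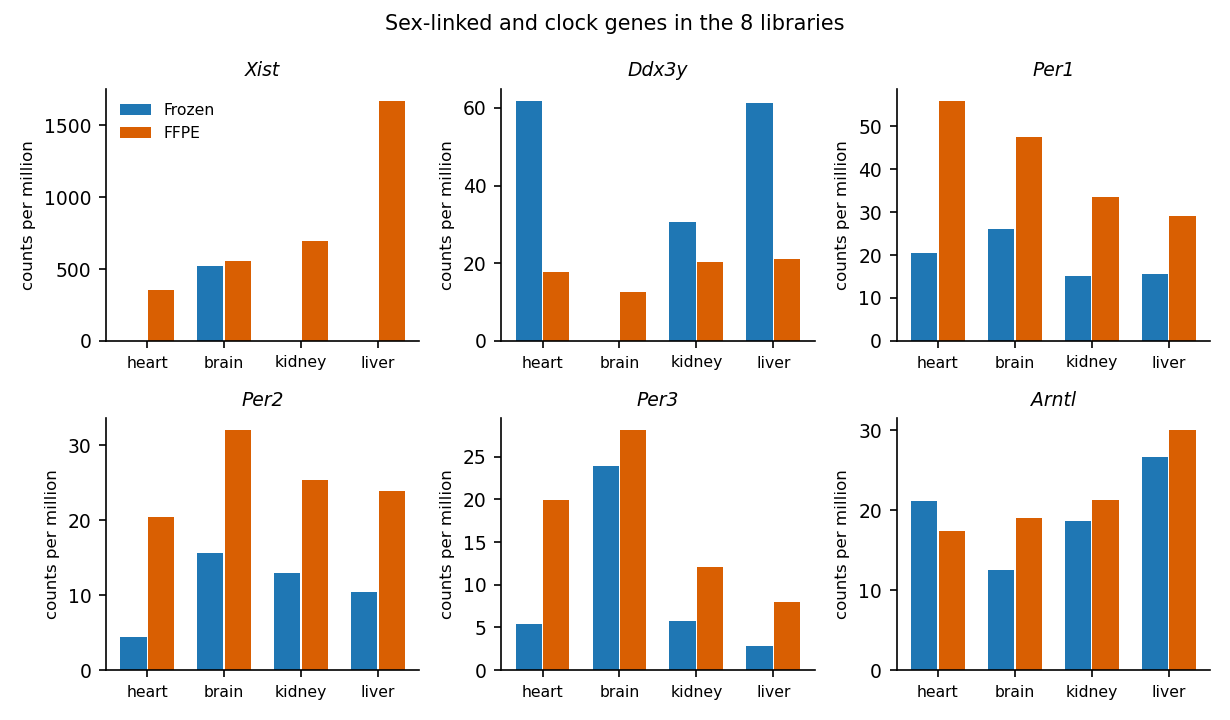
Level in CPM of Xist, Ddx3y and 4 clock genes in the frozen (blue) and FFPE (orange) library of each of 4 organs. Xist is near 0 in frozen heart, kidney and liver and present in every FFPE library, and Per1 and Per2 are higher in the FFPE bar of each organ.

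Hormone and stress lists had medians near the median of all genes or a little above it: 0.43 for glucocorticoid and fasting genes, 0.24 for immediate early genes, 0.17 for hypoxia and −0.03 for heat shock. Among 14 glucocorticoid and fasting genes 3 were at least 2-fold higher (8.43% over all genes) and 1 lower (4.85%). These were the transcription factor Zbtb16 (1810 and 371 reads, 1.92), the metal-binding protein Mt2 (38 and 8, 1.82), the cell cycle inhibitor Cdkn1a (350 and 113, 1.26) and the thioesterase Acot1 (28 and 51, −1.22). Mt2 passed the level filter only through FFPE. The best-known glucocorticoid target Fkbp5 differed by 0.56 and Pdk4 by −0.23. The heat shock genes Hspa1a (93 and 25 reads, 1.51) and Hspa1b (91 and 32, 1.13), near-identical copies that counting may not keep apart, were the 2 of 12 past 2-fold (8.43% higher over all genes). Of 11 hypoxia genes Hilpda (27 and 3 reads, 2.61) and Adm (68 and 21, 1.31) were higher (8.43% over all genes) and Bnip3 (429 and 694, −1.06) lower (4.85%). Hilpda passed the level filter only through FFPE. Immediate early genes had 1 of 19 at least 2-fold higher (8.43% over all genes), Zfp36 (157 and 48 reads, 1.34), with Fos at −0.25 and Egr1 at 0.44. Interferon genes had 0 of 11 and cell cycle genes 0 of 6 past 2-fold.

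Genes of fatty acid oxidation, the main fuel of the heart, lay under no difference as a group. Of 19 members 0 were at least 2-fold higher and 1 lower (8.43% and 4.85% over all genes), with a median of −0.61. Etfa, an electron carrier, had 1945 and 3115 reads (−1.04), the binding protein Fabp3 had 6118 and 9171 (−0.95) and the uptake protein Cd36 had 7625 and 10035 (−0.76). Medians in brain, kidney and liver were −0.49, −0.56 and −0.32. Ribosomal protein genes, which are short and have many near copies, gave 33 of 82 at least 2-fold lower (4.85% over all genes, 11.5% over transcripts of up to 2085 nucleotides) and a median of −0.90, beside −0.74, −0.58 and −0.73 in the other organs. Among the largest falls in heart were the ATP synthase subunits Atp5l (−2.11), Atp5k (−1.97) and Atp5md (−1.80).

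Nuclear long non-coding RNAs were at least 2-fold higher in FFPE heart for 6 of 7 members (8.43% over all genes, 10.3% over transcripts of 4871 or more nucleotides). Xist, which passed the level filter only through FFPE, was among them. Neat1 lay at 1.07 (11124 and 4133 reads), Meg3 at 1.61 and Malat1, the remaining member, at 0.69. The list had a median of 1.07 in heart, beside 0.26, 1.29 and 0.97 in brain, kidney and liver. Mitochondrial messenger RNAs were spread: of 13, ATP6 was higher (1508 and 529 reads, 1.15), ND3 and ND6 were lower (434 and 4528 reads, −3.74, and 9372 and 17056, −1.23) and the median was 0.04. Over all genes 8.43% were higher and 4.85% lower. Lars2, a mitochondrial tRNA synthetase gene, had 84522 FFPE and 358285 frozen reads (−2.45). It differed by −2.96, −8.41 and −6.54 in brain, kidney and liver. Whether all reads assigned to Lars2 came from its message was not tested. ND3, a subunit of complex I, thus lay furthest from 0 of the 13 mitochondrial messages. Among small RNAs, Rnu12, the U12 RNA of the minor spliceosome, had 7113 and 21919 reads (−1.99), Rnu1a1, a U1 RNA, had 388 and 25 (3.57) and Snord22 had 2457 and 8019 (−2.07). The 55 C/D box small nucleolar RNAs gave 12 higher (8.43% over all genes) and 12 lower (4.85% over all genes). The labels and notes do not say whether counting used strand, so reads of small RNAs inside host genes cannot be told from those of the host.

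To see which differences were particular to heart, the heart difference was set against the mean difference of brain, kidney and liver in 1 limma model over the 8 libraries, whose error rests on how those 3 organs vary (2 residual degrees of freedom). At an adjusted p under 0.05 over 13138 genes, 1 gene was higher (0.00761%) and 3 were lower (0.0228%). Ppp1r1b, a phosphatase inhibitor of dopamine-responsive neurons, had 30 reads in FFPE and 0 in frozen heart, at least 7.78-fold higher, while it differed by −0.34, −0.22 and −0.39 in brain, kidney and liver. Its adjusted p was 0.0146 (limma), but it passed the level filter only through FFPE heart, so this call alone supports nothing. The size of the contrast depends on the 0.5 added to 0 reads and ran from 0.75 to 6.54 over the settings tried. For Rnu12 the other organs gave 1.68, 1.49 and 1.61, and the contrast was −3.58 ± 0.24 (SE; limma, adjusted p = 0.0146). ND3 gave −4.09 ± 0.34 (limma, adjusted p = 0.0354). Snora81, an H/ACA guide RNA, had 3650 and 3214 heart reads (−0.18) but 2.20, 2.36 and 2.05 elsewhere, a contrast of −2.38 ± 0.21 (limma, adjusted p = 0.0354). These 4 calls depend on the model: without the liver libraries, and with quantile normalization or without the mean-variance trend, 0 genes were called.

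**Figure D5:**
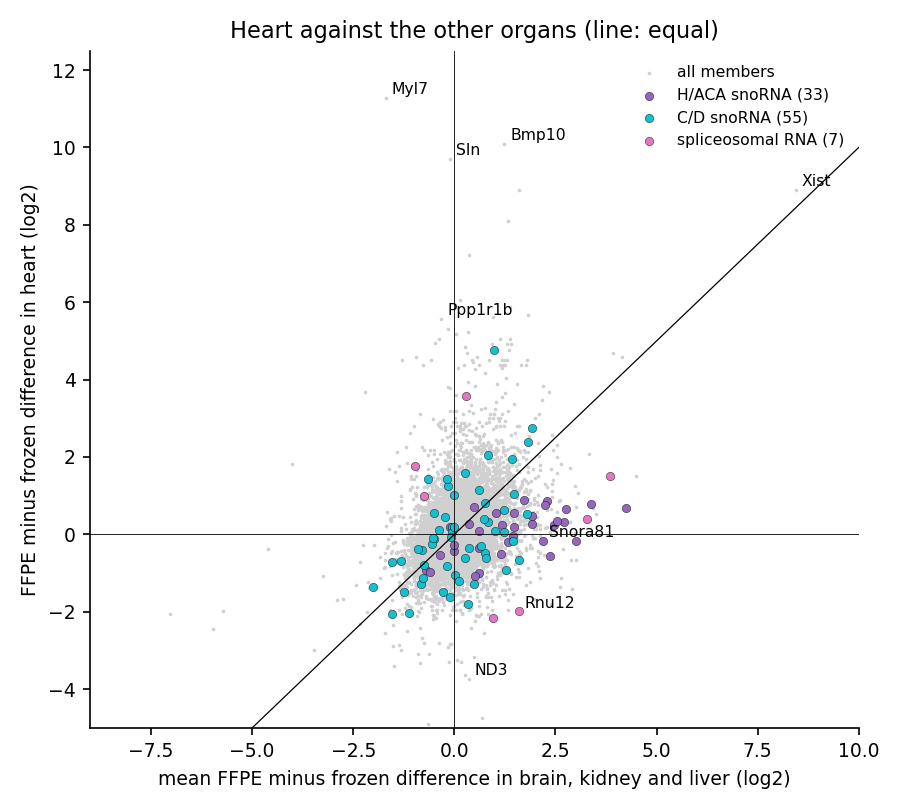
Log2 difference, FFPE minus frozen, in heart (vertical) against the mean of the same difference in brain, kidney and liver (horizontal), for all members and 3 classes of small RNA. Most H/ACA RNAs lie right of the equality line, with a median of 0.20 in heart, and Rnu12, at −1.99 in heart, lies furthest below it among the small nuclear RNAs.

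The atrial genes did not pass this test. Of 13 members 0 were called, and the smallest adjusted p was 0.202 (limma, Dkk3). At unadjusted p under 0.05, limma gave a higher heart difference for 9 of the 13 and for 842 of all 13138 genes. Because 5 of the 13 passed the level filter only through FFPE heart, this count alone supports nothing. For Myl7, with 0 frozen heart reads and at most 4 reads in any library of the other organs, the adjusted p was 0.243 (limma) and the size of the contrast, from 4.69 to 14.44 over settings, is not interpretable. Plekha7, a protein of cell junctions with 168 and 14 heart reads, fell just short at 3.20 ± 0.30 (limma, adjusted p = 0.0525). As a class, the 33 H/ACA RNAs had a median of 0.20 in heart and of 1.66, 1.43 and 1.01 in brain, kidney and liver, and 0 of them were at least 2-fold higher in heart. Snora20 (0.31 in heart, 2.95, 2.56 and 2.62 elsewhere), Snora16a, Snora30 and Snora75 were among the 10 smallest p-values on the lower side but did not pass adjustment (limma, adjusted p 0.166 to 0.195). The U11 RNA of the minor spliceosome, Rnu11, differed by 0.39 in heart and by 2.87, 3.04 and 3.90 elsewhere (limma, adjusted p = 0.186).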

How the data were processed

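The table deposited by the authors holds log2 values of 8 libraries. Per the submitters' processing notes, HISAT2, featureCounts and limma were used with genome mm10. These sources state no version, annotation, strand setting or read filter. From the values, each is the log2 of counts per 1e+06 reads (CPM) with 0.5 added, on a library total times a scaling factor (0.832 for FFPE and 0.500 for frozen heart), and whole reads came out for every heart value within 1e-06. The table was used as deposited, with samples grouped by tissue and treatment labels.

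Heart FFPE minus frozen was described with no test. A gene was counted as different at 2-fold or more, and a 95% exact (Clopper-Pearson) interval of the ratio was taken from the reads, which may be copies of 1 molecule: intervals and the limit of 3 reads for a gene without reads cover counting error only. A gene with 0 reads in both hearts has a difference of −0.36. The contrast of heart with the other organs was fitted with limma 3.58.1 (R 4.3.3, mean-variance trend, organ as a term, Benjamini-Hochberg adjustment over 13138 genes). Its p-values rest on 3 organs that may share animals. The model was also run on log2 values simulated from its own fitted spread. That run held no read counts or zeros, so it cannot check calls on genes without reads. Lengths came from GENCODE for 12373 members (94.2%) and promoters from RefSeq (GRCm38.p6).

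The genes and gene lists were chosen with earlier results of these data known. Named were the 15 largest rises and 15 largest falls by the nearer interval bound (at least 20 reads), chamber list members, the first 3 and up to 6 most different members of each other list, the 10 smallest p-values a side and sex-linked genes. Others named here as examples, the mitochondrial mRNA list under the table's own symbols, the promoter words, and the removal of transcript length and the 20-read filter among the alternatives were chosen after values were seen. Some members of the lists are counted but not reported by name here.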

Additional observations from a re-analysis of the deposited data

Results flagged for a closer look

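A test of the difference between organs marked 4 genes whose heart difference, FFPE minus frozen, departed from the mean of brain, kidney and liver. Rnu12 departed by −3.58, ND3 by −4.09 and Snora81 by −2.38 log2 units. Ppp1r1b departed by a fitted 5.89, a size that depends on the 0.5 added to its 0 frozen heart reads and ran from 0.75 to 6.54 over settings. It passed the level filter only through FFPE heart, so its call alone supports nothing. Over 11 settings of the model Rnu12 was called in 8, Snora81 in 7 and ND3 in 7, and Ppp1r1b in 5 of 10. With 1 library a side in each organ no single difference has a replicate check.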

How the results depend on the processing

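With 1107 genes higher and 637 lower by 2-fold as deposited, a share of all reads gave 4733 and 104 (97.8% of them higher, against 63.5%), log2(CPM + 1) 486 and 311, log2(CPM + 5) 75 and 119 (38.7% higher), a level above log2 3 in 1 heart 248 and 287 (46.4% higher), no filter 4218 and 1559, and a 4-fold limit 270 and 57. A level above log2 0 in both hearts gave 536 higher, and removal of transcript length 388 lower. Lists of at least 3 members with a median past 2-fold, 8 higher and 0 lower as deposited, became 16 higher with a share of all reads, 4 with log2(CPM + 1), 2 with log2(CPM + 5), 3 with both hearts above log2 0 and 5 above log2 3, and 1 lower with the last 2, median centring and length removed. The chamber ratio of Myl4 to Myl3, 479-fold, was 17.5-fold over the summed lists. Under a share of all reads 29 of 133 named genes changed sign, none of them past 2-fold as deposited, and 103 kept their side of 2-fold.

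Calls of heart against the other organs (1 higher, 3 lower) were 0 and 0 without the mean-variance trend or with quantile normalization, 2 higher with robust variance, 11 higher with log2(CPM + 5), 0 higher and 11 lower with voom, 1 lower with a filter on 2 libraries and 0 higher above log2 3. Leaving out 1 organ at a time gave 0 to 33 higher and 0 to 31 lower. At unadjusted p under 0.05, limma gave 659 higher and 526 lower without the trend, 661 and 716 with quantile normalization, and 599 and 430 without the liver libraries. The cause of these changes was not tested. No paired analysis was possible because each group holds 1 library, so the labels' numbers pair nothing beyond the organ, which the model already has as a term. Depth limits genes with few reads most: 253 of the higher and 152 of the lower genes had under 20 reads in either heart.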
